A study of Mus musculus with 2 samples.

Results

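The genes described here are 35 mouse genes of the glutathione and thioredoxin systems, of peroxide and superoxide removal, and of the NRF2 pathway that controls many of them, taken by name from 23238 gene symbols. All 35 were found in both count files. Of these, 34 had 50 or more reads in at least 1 library, the floor used throughout, and 10469 of all genes passed the same floor. The remaining gene, Sod3, had 14 reads in the UNE-C1 library and 38 in the control library.

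The libraries were 1 from bone marrow-derived dendritic cells exposed to 100 nM UNE-C1 for 24 h and 1 from cells of the same kind that the sample title calls control. The treatment text, 100 nM UNE-C1 for 24 h, is the same for both samples, so the control group rests on its title alone, and no label says separately what those cells received. UNE-C1, a fragment of the cysteinyl-tRNA synthetase protein, is known to bind the receptors TLR2 and TLR6. Both cultures were grown with 20 ng/ml GM-CSF from marrow of female C57BL/6 mice aged 7 weeks, the cytokine was renewed on day 3, and non-adherent and loosely attached cells were taken on day 6. Each group had a single library, so a difference is one between 2 libraries with no replicate check, no p-value can be given, and the 95% intervals cover counting error only. The labels do not give the number of mice behind each culture.

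NRF2, encoded by Nfe2l2, is a transcription factor that KEAP1 holds in the cytosol and marks for destruction. Oxidants and electrophiles modify KEAP1, and NRF2 then enters the nucleus and acts with small MAF proteins at antioxidant response elements. Glutathione and thioredoxin are the main thiol reductants of the cell. They pass electrons from NADPH to the peroxidases, transferases join glutathione to reactive compounds, and activated myeloid cells use them beside their own oxidant production.

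The UNE-C1 library held 15975821 reads and the control library 14857198. Levels are CPM, library-size scaled counts with TMM scaling, and because the kit reads the 3' end of a transcript they do not grow with transcript length. A log2 fold change is the UNE-C1 value of log2(CPM + 1) minus the control value, so a positive one means a higher level in the UNE-C1 library, and genes are counted as 2-fold on this scale. A value written as -fold is the plain ratio of CPM with its interval, which for genes with few reads can pass 2 without being counted. Of 9 dendritic cell markers, H2-Aa (69326 reads in the UNE-C1 library and 90271 in the control) and Cd74 were abundant. Flt3 (62 reads in the UNE-C1 library and 143 in the control), Zbtb46 (62 in both) and Dpp4 (170 in the UNE-C1 library and 240 in the control) had few reads. Itgax, which encodes CD11c, was lower in the UNE-C1 library at 246 CPM, against 759 CPM in the control (1 of the 9 past 2-fold, none upward). The 13 neutrophil markers found (of 14 listed) summed to 3764 CPM in the UNE-C1 library and 8553 CPM in the control, with 11 at least 2-fold lower and Lcn2 higher. The 12 monocyte and macrophage markers summed to 4203 CPM in the UNE-C1 library and 4523 CPM in the control, with 3 at least 2-fold higher and 5 lower. The 10 mast cell, basophil and eosinophil markers summed to 810 CPM in the UNE-C1 library and 1233 CPM in the control, with 3 lower. Erythroid markers summed to only 7.90 CPM in the UNE-C1 library and 6.75 CPM in the control, with Car1 at 0 reads in both. The 7 T and B cell markers summed to 0.423 CPM in the UNE-C1 library and 2.27 CPM in the control. In such bulk libraries a change in the share of a cell type and a change in RNA per cell cannot be told apart, and the part of the neutrophil difference in the values below was not tested.

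Most of the antioxidant genes stood higher in the UNE-C1 library, but they did not move as a block. Of the 34 past the floor, 10 (29.4%) were at least 2-fold higher, namely Glrx, Gstm1, Prdx6, Gclc, Sqstm1, Sod2, Keap1, Gss, Prdx1 and Osgin1. Over all 10469 genes the share at least 2-fold higher was 9.31%. Mgst3 was at least 2-fold lower (2.94% of the 34, against 9.42% of all genes), and 23 genes changed by less than 2-fold. The median log2 fold change of the 34 was 0.67, against -0.00 for all genes, and 27 were above 0 and 7 below. With total counts in place of TMM, which moved the median of all genes to -0.33, 8 of the 34 passed 2-fold upward, without Prdx1 and Osgin1, against 6.28% of all genes. The genes past 2-fold downward were then 4, with Nfe2l2, Txn2 and Prdx3 beside Mgst3, against 16.2% of all genes.

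**Figure D1:**
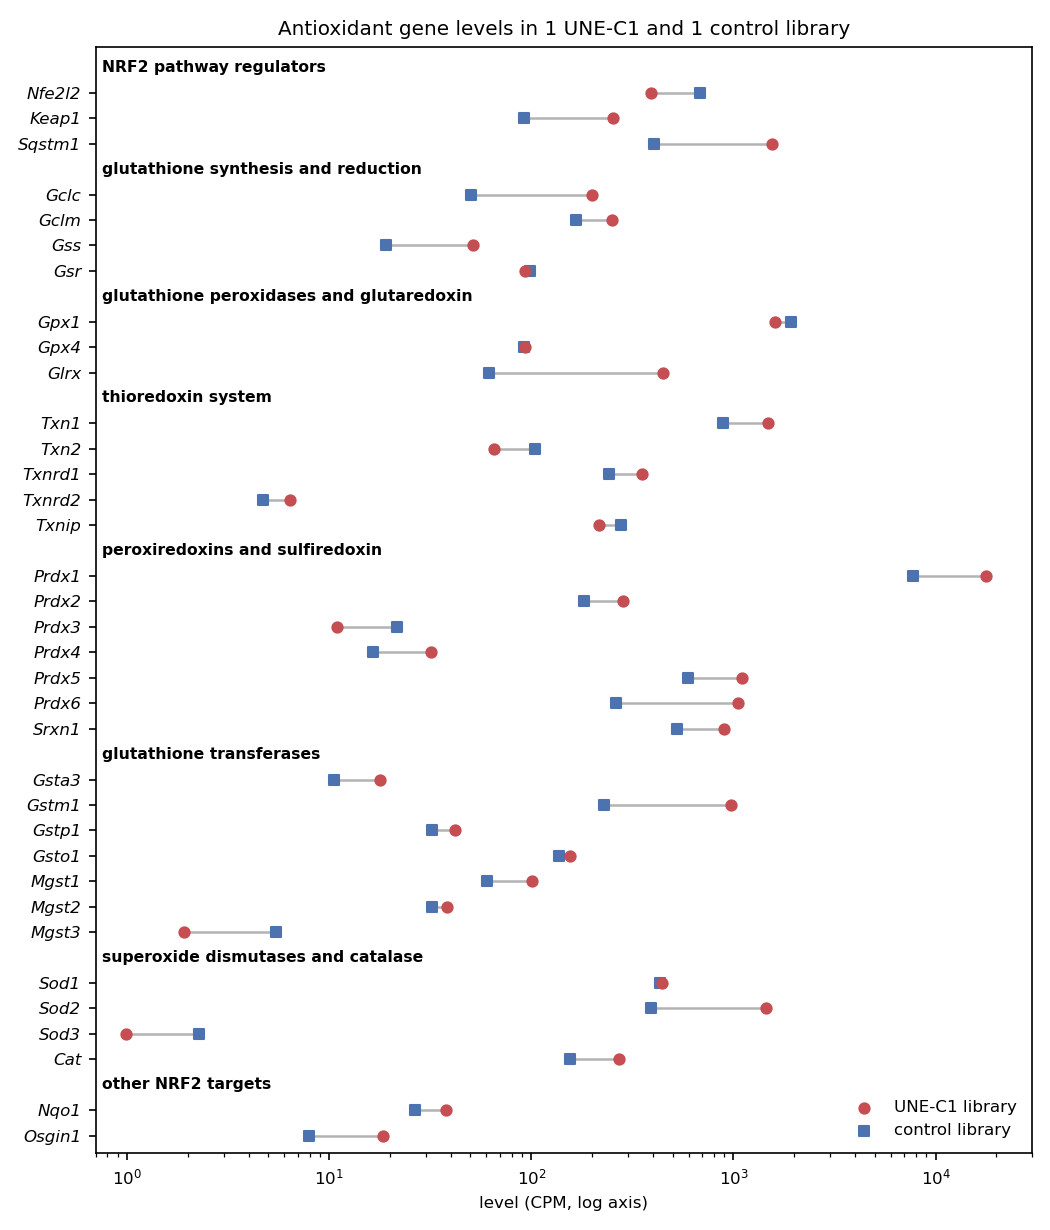
Level of each of the 35 genes in CPM on a log axis, grouped by role, with 1 circle for the UNE-C1 library and 1 square for the control library. The longest line among the higher genes belongs to Glrx, at 449 CPM in the UNE-C1 library against 61.9 CPM in the control, and Prdx1 stands to the right of every other gene in both libraries.

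The 35 genes together took 451113 reads, or 2.82% of the UNE-C1 library, against 266743 reads or 1.80% of the control library. Prdx1 alone made up 56.1% of these reads in the UNE-C1 library and 48.3% in the control. Their summed level was 31803 CPM in the UNE-C1 library and 15941 CPM in the control. That is 1.995-fold higher (interval 1.986 to 2.005), or 1.70-fold without Prdx1, and the interval does not cover the scaling. The sum over all genes past the floor was 1.27-fold higher. Those genes held nearly all reads of both libraries, so the 1.27 is set by the TMM scaling and is not a measured difference.

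**Figure D2:**
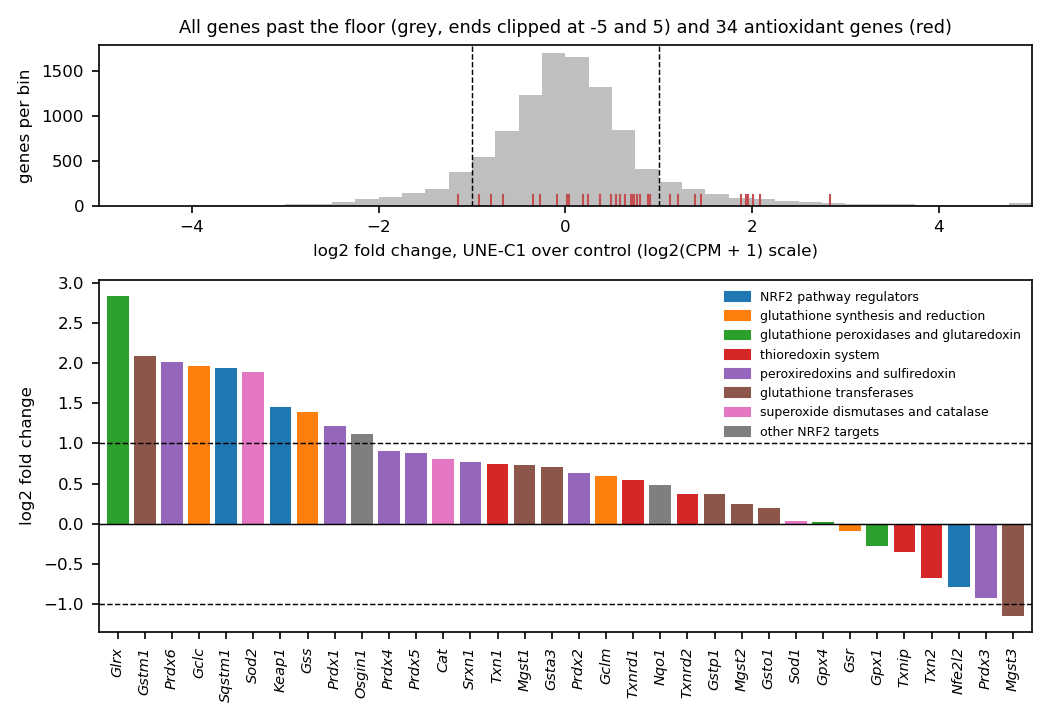
Top, log2 fold change of all 10469 genes past the floor (grey histogram) with the 34 antioxidant genes as red ticks. Bottom, the same 34 genes as bars in order of fold change and coloured by role, with dashed lines at 2-fold; the bars run from 2.84 for Glrx to -1.15 for Mgst3 and every role but the thioredoxin system has at least 1 gene above the upper line.

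The stretch before the transcription start is where antioxidant response elements have been described for several of these genes, so the letters of that element were looked for in RefSeq promoter windows (GRCm38.p6, 250 bases before to 50 after each start) of the 31 genes that had one. The strict letters TGANTCAGC, on either strand, occurred in the windows of 4 of these genes (12.9%), Prdx1, Osgin1, Srxn1 and Gstp1, against 369 (1.37%) of all 27025 gene symbols in the table. Some genes have several windows, and counted by window the letters were in 10.3% of the 39 windows of the set and in 1.19% of all 32851. The looser letters TGACNNNGC occurred in the windows of 8 genes (25.8%), Nfe2l2, Gclm, Txnrd1, Prdx1, Srxn1, Gsta3, Mgst1 and Sod1, against 14% of all gene symbols, or in 20.5% of the windows of the set against 12.4% of all windows. The TGANTCAGC match in Prdx1 reads TGACTCAGC and meets both patterns. Those in Osgin1, Srxn1 and Gstp1 read TGAGTCAGC and meet only TGANTCAGC, so neither pattern contains the other. Of the 8 genes at least 2-fold higher that had a window, 2 held TGANTCAGC and 1 held TGACNNNGC. Of the other 23 genes, 2 held TGANTCAGC and 7 held TGACNNNGC. The windows of Glrx, Gstm1, Sod2, Sqstm1, Keap1 and Gss held neither pattern, and Gclc, Gsr, Prdx6 and Sod3 were not in the table. A match of letters is a description and shows neither a bound site nor which factor would bind it. Because the element has been described for several of these genes, the higher shares were not taken as a result about the set. Sequence farther from the start was not searched, so a window without a match does not show that the gene lacks the element.

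The 4 stretches with TGANTCAGC are shown because they let the strict match be seen in genes above and below 2-fold. Each covers bases 170 to 21 before the start, 5′ to 3′ on the gene's strand, at chr4:116685429-116685578 (plus) for Prdx1, chr8:119436977-119437126 (plus) for Osgin1, chr2:152105354-152105503 (plus) for Srxn1 and chr19:4037933-4038082 (minus) for Gstp1. Capitals mark the match, which lies on the opposite strand in Prdx1 and Osgin1 and therefore reads there as its reverse complement.
Prdx1: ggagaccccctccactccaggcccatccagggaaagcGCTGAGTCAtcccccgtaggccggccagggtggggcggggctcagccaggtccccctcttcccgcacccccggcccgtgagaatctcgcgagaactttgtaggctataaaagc
Osgin1: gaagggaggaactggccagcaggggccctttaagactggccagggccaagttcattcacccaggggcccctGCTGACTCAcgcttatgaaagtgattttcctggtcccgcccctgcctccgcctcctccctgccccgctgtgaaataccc
Srxn1: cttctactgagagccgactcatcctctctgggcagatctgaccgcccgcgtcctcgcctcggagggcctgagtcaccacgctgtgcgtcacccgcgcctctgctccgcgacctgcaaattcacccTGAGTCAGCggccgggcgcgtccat
Gstp1: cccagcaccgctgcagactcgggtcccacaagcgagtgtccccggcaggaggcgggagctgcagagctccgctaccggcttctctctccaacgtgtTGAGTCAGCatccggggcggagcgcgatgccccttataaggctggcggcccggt
Prdx1 was 2.32-fold and Osgin1 also 2.32-fold higher in the UNE-C1 library, while Srxn1 was 1.70-fold higher. The reads assigned to Gstp1 were 1.30-fold higher, but they cannot be told apart from those of its near-identical neighbour Gstp2. The match begins 133 bases before the start in Prdx1, 99 in Osgin1, 45 in Srxn1 and 74 in Gstp1.

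Among the regulators, the transcript of NRF2 itself was lower and those of Keap1 and Sqstm1 higher. Nfe2l2 (chromosome 2, 75675513 to 75704641, minus strand of GRCm38) had 5565 reads or 392 CPM in the UNE-C1 library and 11387 reads or 680 CPM in the control, a 1.73-fold lower level (interval 1.68 to 1.79). Keap1, the NRF2 inhibitor, had 3600 reads in the UNE-C1 library and 1545 in the control, 2.75-fold higher (2.59 to 2.92). Sqstm1 (chromosome 11, 50199366 to 50210827) encodes p62, an autophagy receptor that binds KEAP1 and is itself an NRF2 target. It was at 1545 CPM in the UNE-C1 library and 402 CPM in the control, 3.84-fold higher (3.74 to 3.95). The ratio of Keap1 to Nfe2l2 reads, which does not depend on scaling between libraries, was 0.647 (0.620 to 0.675) in the UNE-C1 library and 0.136 (0.129 to 0.143) in the control. The exons of Sqstm1 and Keap1 overlap those of genes on the opposite strand, and the labels do not say whether counting used strand.

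Of the classical NRF2 targets outside the enzyme families, Osgin1, an oxidative stress-induced growth inhibitor, had 261 reads in the UNE-C1 library and 133 in the control (2.32-fold, 1.87 to 2.87). Nqo1, the quinone reductase often used as a readout of NRF2, had 537 reads in the UNE-C1 library and 447 in the control, 1.42-fold higher (1.25 to 1.61). It did not reach 2-fold.

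In glutathione synthesis Gclc and Gss differed most. Gclc (chromosome 9, 77754535 to 77794485) encodes the catalytic subunit of glutamate-cysteine ligase, the rate-limiting enzyme. It had 2823 reads in the UNE-C1 library and 844 in the control, 3.95-fold higher (3.65 to 4.27). The modifier subunit Gclm had 3550 reads in the UNE-C1 library and 2776 in the control, 1.51-fold higher (1.44 to 1.59). The catalytic transcript therefore made up 44.3% of the reads of the pair in the UNE-C1 library (Wilson interval 43.1 to 45.5) and 23.3% in the control (22.0 to 24.7). Gss, which adds glycine to complete glutathione, was at 51.7 CPM in the UNE-C1 library and 19.1 CPM in the control (2.71-fold, 2.38 to 3.11). Gsr, which reduces oxidized glutathione with NADPH, had 1315 reads in the UNE-C1 library and 1652 in the control and a ratio of 0.939 (0.873 to 1.01), an interval that includes 1. The exons of Gss overlap those of Acss2 on the opposite strand. Acss2 had 605 reads in the UNE-C1 library and 334 in the control.

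The enzymes that spend glutathione on peroxides and on mixed disulfides differed from each other. Glrx (chromosome 13, 75839868 to 75850154, plus strand) encodes glutaredoxin, which removes glutathione from modified protein cysteines, and had the highest fold change of the 34. It had 6364 reads in the UNE-C1 library and 1036 in the control, 7.25-fold higher (6.78 to 7.75), a log2 fold change of 2.84 above that of 98.7% of all genes past the floor. Gpx1, the abundant cytosolic glutathione peroxidase, had 22725 reads in the UNE-C1 library and 32417 in the control, 1.21-fold lower (1.19 to 1.23). Gpx4, which reduces lipid peroxides in membranes, had 1315 reads in the UNE-C1 library and 1532 in the control and a ratio of 1.01 (0.940 to 1.09, below 1 with total counts). The reads of this group summed to 2143 CPM in the UNE-C1 library and 2091 CPM in the control, a ratio of 1.03 that turned to 0.808 with total counts, but their makeup shifted whatever the scaling. Glrx was 20.9% of them in the UNE-C1 library and 2.96% in the control, and Gpx1 was 74.7% in the UNE-C1 library and 92.7% in the control.

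**Figure D3:**
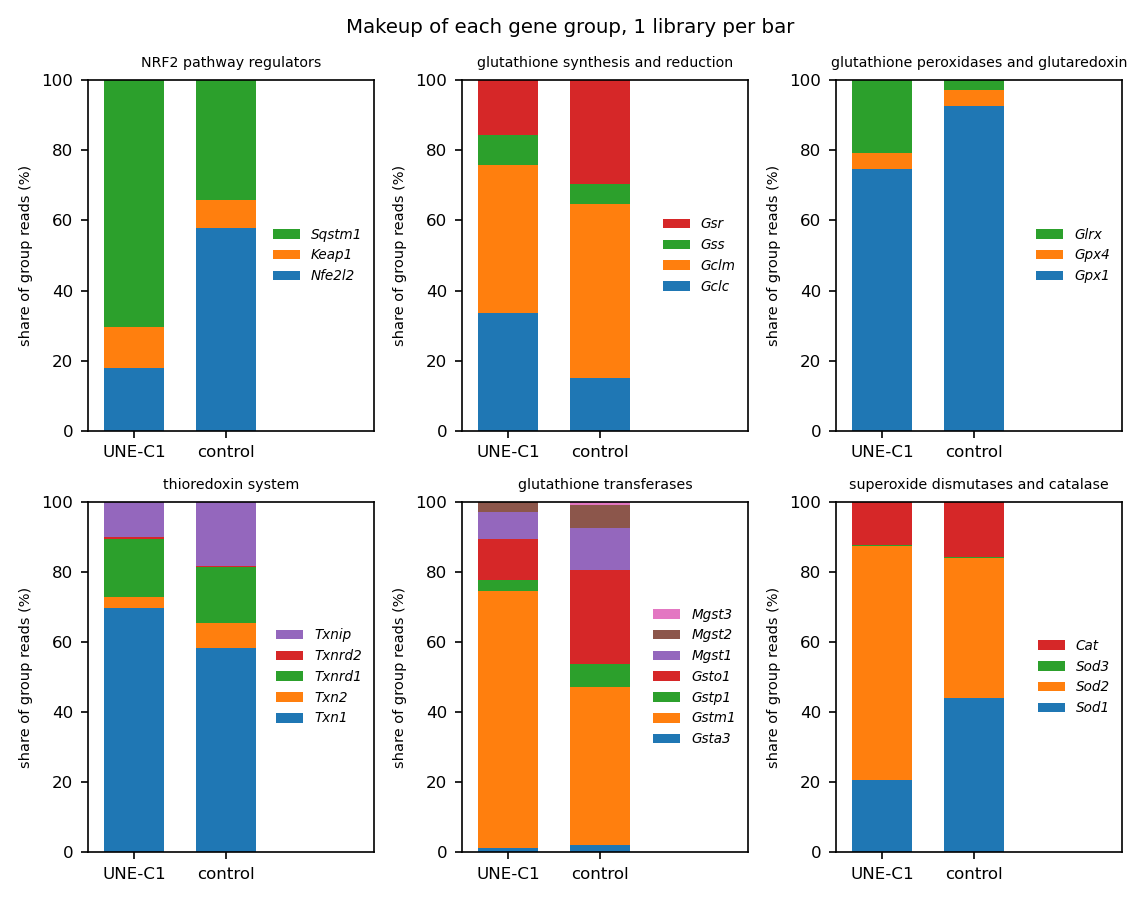
Share of each gene in the reads of its group, in percent, with the UNE-C1 library as the left bar and the control library as the right bar of each panel; shares do not depend on the scaling between libraries. Sqstm1, Gclc, Glrx, Gstm1 and Sod2 take wider bands in the UNE-C1 bar, and Nfe2l2, Gpx1, Gsto1 and Sod1 wider bands in the control bar.

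The thioredoxin system, which reduces protein disulfides and the peroxiredoxins, had no member past 2-fold in either direction with TMM scaling. Over all genes the shares were 9.31% higher and 9.42% lower. With total counts, Txn2 passed 2-fold downward. Txn1, the cytosolic thioredoxin, was at 1476 CPM in the UNE-C1 library and 884 CPM in the control (1.67-fold higher, 1.64 to 1.71), and its reductase Txnrd1 at 355 CPM in the UNE-C1 library and 243 CPM in the control (1.46-fold, 1.40 to 1.52). Their mitochondrial counterparts had fewer reads. Txn2 had 923 reads in the UNE-C1 library and 1744 in the control, 1.60-fold lower (1.48 to 1.74), and Txnrd2 had 91 reads in the UNE-C1 library and 79 in the control, a ratio of 1.36 whose interval of 0.994 to 1.86 includes 1. Txnip, which binds and inhibits thioredoxin and follows glucose uptake, had 3083 reads in the UNE-C1 library and 4639 in the control, 1.28-fold lower (1.22 to 1.34). For each Txnip read there were 6.79 Txn1 reads in the UNE-C1 library (6.54 to 7.06) and 3.19 in the control (3.08 to 3.30).

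Peroxiredoxins reduce hydrogen peroxide through a reactive cysteine that thioredoxin or, for Prdx6, glutathione restores. Prdx1 (chromosome 4, 116685544 to 116700822) ranked number 7 of all genes by reads in both libraries. It had 253019 reads (17838 CPM) in the UNE-C1 library and 128922 (7705 CPM) in the control, 2.32-fold higher (2.30 to 2.33). Prdx6 (chromosome 1, 161240112 to 161251219), which also has phospholipase activity, was at 1054 CPM in the UNE-C1 library and 261 CPM in the control (4.04-fold, 3.90 to 4.17). The related gene Prdx6b had 44 reads in the UNE-C1 library and 38 in the control.

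The other peroxiredoxins changed by less than 2-fold on the log2(CPM + 1) scale. Prdx5 had 15571 reads in the UNE-C1 library and 9960 in the control (1.84-fold, 1.80 to 1.89), and Prdx2 had 4025 reads in the UNE-C1 library and 3049 in the control (1.56-fold, 1.49 to 1.63). The endoplasmic reticulum form Prdx4 had 452 reads in the UNE-C1 library and 277 in the control (1.92-fold, 1.65 to 2.24). Prdx3, a mitochondrial form, went the other way, with 155 reads in the UNE-C1 library and 363 in the control, 1.99-fold lower (1.64 to 2.41). Srxn1, the sulfiredoxin that repairs over-oxidized peroxiredoxins, was at 896 CPM in the UNE-C1 library and 527 CPM in the control (1.70-fold, 1.66 to 1.75). The exons of Prdx2 overlap Junb and Rnaseh2a and those of Prdx5 overlap Trmt112, all on the opposite strand. Junb had 4193 reads in the UNE-C1 library and 2789 in the control, about as many as Prdx2. Rnaseh2a had 131 in the UNE-C1 library and 358 in the control, and Trmt112 had 1327 and 1641 in the same order. Whether reads were shared between these genes was not tested. Prdx1 held nearly the same share of peroxiredoxin reads in both libraries, 87.8% in the UNE-C1 library and 87.7% in the control.

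Glutathione transferases join glutathione to reactive compounds. Their summed level was 2.63-fold higher in the UNE-C1 library (2.56 to 2.70), at 1329 CPM against 506 CPM in the control, and most of the difference lay in Gstm1. Gstm1 (chromosome 3, 108012255 to 108017973) had 13794 reads in the UNE-C1 library and 3822 in the control, 4.26-fold higher (4.11 to 4.41), and took 73.2% of the reads of the group in the UNE-C1 library and 45.2% in the control. Its near copies Gstm2 (835 reads in the UNE-C1 library and 566 in the control) and Gstm4 (195 in the UNE-C1 library and 122 in the control) had far fewer, though reads could have been split among them. Gstp1 had 597 reads in the UNE-C1 library and 542 in the control, and its near-identical neighbour Gstp2 had 616 in the UNE-C1 library and 564 in the control, so neither value can be taken as that of 1 gene. Gsta3 had 252 reads in the UNE-C1 library and 176 in the control (1.69-fold, 1.39 to 2.06) and Gsto1, an omega-class enzyme, 2213 in the UNE-C1 library and 2284 in the control (1.14-fold, 1.08 to 1.21, below 1 with total counts).

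The 3 microsomal transferases, which sit in membranes, spread on both sides. Mgst1 had 1429 reads in the UNE-C1 library and 1013 in the control (1.66-fold, 1.53 to 1.81), and Mgst2 had 540 in the UNE-C1 library and 537 in the control (1.19-fold, 1.05 to 1.34, below 1 with total counts). Mgst3 (chromosome 1, 167371966 to 167393841), with 27 reads in the UNE-C1 library and 91 in the control, was 2.86-fold lower (1.84 to 4.57). It was the only one of the 34 counted as 2-fold lower, and a pseudocount of 5 CPM or a floor of 200 reads took it off that count.

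Superoxide dismutases turn superoxide into hydrogen peroxide, which catalase breaks down. Sod2 (chromosome 17, 13006846 to 13040063), the mitochondrial enzyme and a known NF-kappaB target, had 20475 reads in the UNE-C1 library and 6536 in the control, 3.70-fold higher (3.59 to 3.80). Sod1, the cytosolic enzyme, had 6290 reads in the UNE-C1 library and 7219 in the control, a ratio of 1.03 (0.994 to 1.06) that turned below 1 with total counts. Sod2 was thus 76.5% of superoxide dismutase reads in the UNE-C1 library (75.9 to 77.0) and 47.4% in the control (46.6 to 48.2). The extracellular form Sod3 was below the floor at 0.987 CPM in the UNE-C1 library and 2.27 CPM in the control. Cat, the peroxisomal catalase, was at 270 CPM in the UNE-C1 library and 155 CPM in the control (1.75-fold, 1.66 to 1.84). The 4 members taken here as mitochondrial thus differed in direction, with Sod2 higher, Prdx3 and Txn2 lower, and Txnrd2 within counting error. Members found in several compartments, among them Prdx5, were not counted with these.

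Genes related to the set by function, 101 of them past the floor and each counted once, had shares close to those of all genes. Of them, 11 (10.9%) passed 2-fold upward, against 9.31% of all genes, and 8 (7.92%) downward, against 9.42%. Each list below held only 6 to 26 genes past the floor, so its count of genes past 2-fold was not taken as a trait of the list. Of 24 NRF2 partners and other targets, 4 (16.7%) were higher and 1 (4.17%) lower. Hmox1, heme oxygenase, had 18886 reads in the UNE-C1 library and 2081 in the control (10.7-fold, 10.2 to 11.2), Me1, malic enzyme, was 3.45-fold higher (2.69 to 4.48) and Htatip2 2.91-fold higher (2.64 to 3.20). The fourth was Fth1, the ferritin heavy chain, at a log2 fold change of 1.09. Blvra, which reduces the biliverdin that heme oxygenase makes, had 591 reads in the UNE-C1 library and 1595 in the control, 2.29-fold lower (2.08 to 2.52). The cystine transporter Slc7a11, a common NRF2 readout, was at 535 CPM in the UNE-C1 library and 408 CPM in the control (1.31-fold, 1.27 to 1.36). The NRF2 partner Mafg (1.45-fold), the related factor Nfe2l1 (1.34-fold) and the competing repressor Bach1, with a ratio of 0.988 (0.894 to 1.09), also stayed under 2-fold.

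NADPH supply genes stood on both sides, with 1 of 14 higher (7.14%, Me1) and 2 lower (14.3%), against 9.31% and 9.42% of all genes. Mitochondrial isocitrate dehydrogenase Idh2 had 257 reads in the UNE-C1 library and 916 in the control (3.02-fold lower, 2.63 to 3.48), the folate enzyme Mthfd1 had 30 reads in the UNE-C1 library and 123 in the control, and the transhydrogenase Nnt was 1.85-fold lower. G6pdx, the entry of the pentose phosphate pathway, was 1.55-fold higher (1.47 to 1.64). Of 10 other glutathione enzymes, Ggct, which acts in glutathione breakdown, was 3.78-fold higher (2.90 to 4.99) and Esd 2.53-fold higher (2.48 to 2.59), while Glo1 and Glrx5 had log2 fold changes of -0.88 and -0.79.

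Of 10 other transferases, Ptges, the inducible prostaglandin E synthase, was 4.02-fold higher (3.31 to 4.90), and Gstt1 had 52 reads in the UNE-C1 library and 1 in the control (ratio 61.3, interval 10.5 to 2469). Gstt3 and Gstm4 had log2 fold changes of 0.97 and 0.83. Of 26 thioredoxin-fold and methionine sulfoxide repair genes none was 2-fold higher, against 9.31% of all genes, and 4 (15.4%) were lower, against 9.42%. The 4 were Sesn1 (39 reads in the UNE-C1 library and 276 in the control, 6.00-fold lower, 4.28 to 8.62), Txndc16, Tmx4 and Msrb2. None of 6 relatives and regulators of Txnip passed 2-fold, against 9.31% of all genes higher and 9.42% lower. Their log2 fold changes were 0.84 for Arrdc3, 0.54 for Arrdc4, 0.48 for Mlx, 0.41 for Arrdc1, -0.24 for Mlxip and -0.34 for Arrdc2. Among 12 selenoprotein and selenium pathway genes outside the set, Selm had 1121 reads in the UNE-C1 library and 99 in the control (13.4-fold, 10.9 to 16.6) and Sepw1 had 1466 in the UNE-C1 library and 254 in the control (6.81-fold, 5.96 to 7.81). Dio2 was also higher (138 reads in the UNE-C1 library and 67 in the control) and the secreted carrier Sepp1 lower (435 reads in the UNE-C1 library and 1258 in the control, 2.45-fold). The remaining 8 of the 12 stayed under 2-fold and all lay below 0, with Sep15 the lowest at a log2 fold change of -0.88. Selk, Sephs2, Vimp and Selt had log2 fold changes of -0.07, -0.08, -0.15 and -0.37, and the median of the list was -0.10. Of the 26 older and newer symbols looked for, 12 were in the files, and selenoproteins counted in other lists were left out. Among those, Msrb1 had 6984 reads in the UNE-C1 library and 4793 in the control, a log2 fold change of 0.78. Gpx3 was at -0.32 and Txnrd3 at -0.27. The selenoproteins of the set, Gpx1, Gpx4, Txnrd1 and Txnrd2, also stayed under 2-fold, between -0.27 and 0.54.

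**Figure D4:**
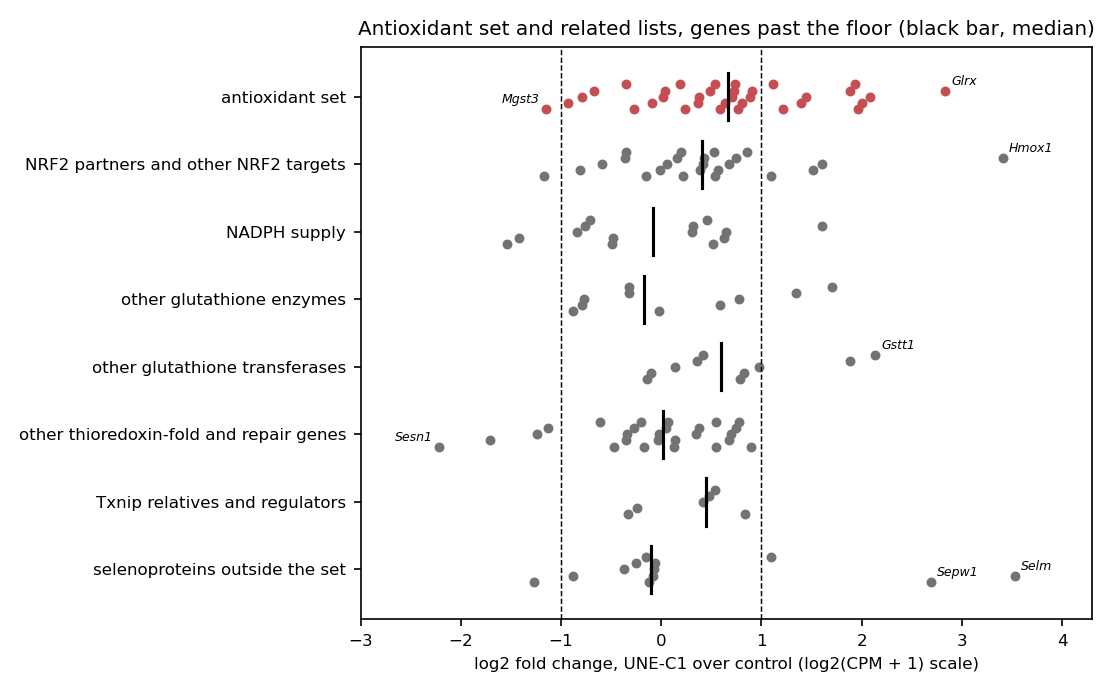
Log2 fold change, UNE-C1 over control, of each gene past the floor in the antioxidant set (red) and in 7 related lists (grey), with a black bar at each list's median and dashed lines at 2-fold. The median of the set is 0.67, and Selm, Hmox1 and Glrx lie farthest to the right.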

How the data were processed

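RNA was measured in 2 libraries, built with a QuantSeq 3' kit from 500 ng of RNA each, per the labels' protocols. The deposited files hold raw read counts per gene symbol, made by the authors; Bowtie2, edgeR and mm10 are named in the submitters' processing notes without roles. The counting tool, annotation, strand setting and treatment of multiply mapped reads are not stated in the labels, which name no molecular identifiers. Each file had 23282 entries, and repeated symbols (35) were summed. None was a blank symbol; Rn45s took 3.98% of UNE-C1 and 5.21% of control reads.

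CPM used TMM effective library sizes (factors 0.888 for UNE-C1 and 1.13 for control; edgeR 4.0.16, R 4.3.3). The pseudocount was 1 CPM. The floor of 50 reads equals 3.52 CPM in the UNE-C1 and 2.99 CPM in the control library. Ratios are plain CPM ratios with exact conditional binomial (Clopper-Pearson) 95% intervals (scipy 1.17.1), and shares have Wilson intervals. No test was possible with 1 library per group. The ratio calculation was run on simulated Poisson counts with known library sizes. That checks only the arithmetic and covers neither variation between replicates nor error in scaling. All 35 genes are named; of each of 7 related lists, the rule named up to 4 genes with the largest change, plus Hmox1, Slc7a11, Bach1, Mafg, G6pdx and Nfe2l1. Related lists leave out the 35 genes. The 35 genes, the lists, the motif letters and the cell type markers were chosen with earlier results of these data known. Other genes named (Acss2, Junb, Rnaseh2a, Trmt112, Prdx6b, Gstm2, Gstp2) are overlapping or near-copy genes. These, Fth1, Mlxip, Arrdc2, Sep15, Selk, Sephs2, Vimp, Selt, Msrb1, Gpx3, Txnrd3 and the cell type markers named were picked after their values were seen. Gene positions are those of GENCODE M21 on GRCm38, which is mm10. Exons of 8 of the 35 genes overlap a gene on the opposite strand there. Alternatives were total counts with and without Rn45s, DESeq2 1.42.0 size factors, pseudocounts of 0.1 and 5 CPM, and floors of 1 and 200 reads.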

Additional observations from a re-analysis of the deposited data

How the results depend on the processing

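No paired analysis was possible because each group has 1 library, and for the same reason no replicate could be left out. Under every alternative run, 8 to 10 genes of the set were at least 2-fold higher, and those 8 (Keap1, Sqstm1, Gclc, Gss, Glrx, Prdx6, Gstm1 and Sod2) were among the 10 each time. The count at least 2-fold lower was 1, but 4 with total counts, with or without Rn45s, and 0 with a pseudocount of 5 or a floor of 200 reads. The 8 related genes at least 2-fold lower became 16 with total counts, with or without Rn45s. The share of all genes at least 2-fold lower moved too. It was 9.42% with TMM, 16.2% with total counts and 16.9% once Rn45s was also left out. The 5 CPM pseudocount gave 4.62% and the 200-read floor 7.57%. The share of all genes at least 2-fold higher ran from 6.13% (total counts without Rn45s) to 10.1% (200-read floor). The median of the set was 0.34 with total counts, 0.32 without Rn45s, 0.68 with DESeq2 size factors, 0.69 and 0.60 with pseudocounts of 0.1 and 5, 0.64 with no floor and 0.71 with a floor of 200 reads. The ratio of summed levels, UNE-C1 over control, with total counts and then with total counts without Rn45s, was 1.47 and 1.45 for the NRF2 regulators, 1.40 and 1.38 for glutathione synthesis and reduction, 0.808 and 0.798 for glutathione peroxidases and glutaredoxin, 1.10 and 1.09 for the thioredoxin system, 1.80 and 1.77 for peroxiredoxins and sulfiredoxin (2.29 with DESeq2 size factors), 2.07 and 2.04 for glutathione transferases, 1.74 and 1.72 for superoxide dismutases and catalase, and 1.28 and 1.26 for Nqo1 and Osgin1. Gpx4, Gsto1, Mgst2 and Sod1, all under 2-fold, turned below 0 with total counts, with or without Rn45s. These shifts follow from the scaling itself, which moves all genes together, whereas shares within a group do not move. Few reads in 1 or both libraries leave wide counting intervals for Mgst3, Sod3, Txnrd2, Gstt1, Mthfd1, Txndc16 and Sesn1, among others.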
